A study of Mus musculus with 6 samples.

Results

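The transcripts of 3 families of RNA-binding proteins were followed in the suprachiasmatic nucleus (SCN), the hypothalamic pacemaker of mammals that receives light input from the retina. The members are the probe sets whose gene symbol in the platform annotation begins with Hnrnp, Srsf or Rbm and, for the last pair, goes on with a digit, together with Cirbp. They number 131 of the 22626 probe sets measured and read 50 of 12394 genes. By symbol, 18 genes (50 probe sets) are HNRNP genes, 9 (28 probe sets) are SR genes and 21 (51 probe sets) are RBM genes. The cold-inducible genes Cirbp and Rbm3, with 1 probe set each, were set apart from these classes. A further 12 probe sets that list a matching gene along with other genes were left out. The single probe set of Rbm3 is annotated both to Rbm3 and to its pseudogene Rbm3-ps, which it cannot tell apart.

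RNA was taken from male C57BL/6 mice, 2 to 4 months old, kept under 14 hours of light and 10 hours of darkness. No transgene or mutation is named for either group. The light pulse group received 2400 lux for 30 min, starting 1 h after lights off, and the sham light pulse group stayed dark over the same time, with tissue taken under dim red light. Tissue was collected at the end of the pulse, 1.5 h after lights off. Laser capture microscopy lifted the SCN from 6 sections of 12 μm per mouse, and by the study's methods each array held RNA pooled from 3 mice (18 sections), of which 1 ng was amplified in 2 rounds. Each group had 3 arrays (Affymetrix Mouse 430A 2.0), on which every transcript is read by 1 or more probe sets of short oligonucleotides. The labels speak of a single animal where the methods speak of a pool, and the Zeitgeber hour they print for the pulse would fall before lights off if it were counted from lights on, so the methods are followed for both. Whether any mouse contributed to several pools is not stated. P-values therefore measure the spread between pools, and precision is limited by the 3 arrays of each group.

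HnRNP proteins coat newly made RNA in the nucleus and act in splicing, export and RNA stability. SR proteins, named for their serine- and arginine-rich domains, bind exons and help the spliceosome to choose splice sites, often in opposition to hnRNP proteins. The RBM genes share little beyond an RNA recognition motif and range from splicing factors to proteins of the exon junction complex. Cirbp and Rbm3 encode small glycine-rich proteins whose amounts rise when cells are cooled by a few degrees. Cirbp has been studied as a binder of clock gene transcripts.

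The deposited signal intensities, on a linear scale, were similar in overall level on the 6 arrays, with trimmed means from 492.3 to 495.6. Pairs of arrays of the same group correlated at 0.893 to 0.935 in log2 signal, and pairs of arrays from different groups at 0.886 to 0.934. Tests were made on the 45.7% of the probe sets with the highest signals, ranked by the signal that at least 3 of the 6 arrays reached, without regard to group. For the last of them this signal was 118.2. The SCN markers Vip, Grp, Calb1, Gad1, Six6 and Lhx1 had signals of at least 2501 on every array, and the other 5 SCN markers measured had at least 109.4. Light pulse replicate 3 stood apart in Ttr, a gene of the choroid plexus, with 110323 against at most 295.6 on the other arrays. Of the 4 choroid plexus markers measured, Ttr alone was kept, and on that array Folr1 had 147.3, Kl 72.7 and Aqp1 40.3. Named members whose value without this array changed sign or moved by over 1.5 times are given with and without it, and the part of choroid plexus RNA in them was not tested.

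Between the light pulse and the sham light pulse no member passed the test after adjustment. Of the 131 members 93 (71.0%) were kept for testing, from 45 genes, and limma, which fits a linear model to each probe set and moderates its variance with that of the others, called 0 of the 93 at an adjusted p under 0.05 (Benjamini-Hochberg over all kept probe sets, two-sided). The smallest adjusted p of a member was 0.960. Of all kept probe sets the same test called 0.0677% higher after the light pulse and 0% lower. At an unadjusted p under 0.05 limma gave 2 members higher and 0 lower, or 2.15% and 0% of those kept, against 2.11% and 2.21% of all kept probe sets. Cyber-T, the moderated test named in the study's methods and written anew here, called 0 members and gave 2 higher and 1 lower at an unadjusted p under 0.05. The groups did not overlap, with the light pulse arrays higher, in 6 members (6.45%), against 5.62% of all kept probe sets. With the light pulse arrays lower, the count was 2 members (2.15%), against 4.46%. These shares lay near or below those of all kept probe sets. In pooled tissue such as this, fewer cells of a type and less RNA per cell cannot be told apart.

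Over the 93 kept members the median log2 fold change (light pulse minus sham light pulse) was -0.08, with 41 above 0 and 52 below. The median over all kept probe sets was 0.00, with 50.1% above 0. By class the median was -0.05 for 42 HNRNP probe sets, -0.19 for 22 SR probe sets and -0.08 for 27 RBM probe sets. With each gene read by its main probe set, whose log2 signal had the highest mean, the HNRNP median lay on the other side of 0, at 0.10 over 17 genes. The SR median was then -0.19 over 9 genes and the RBM median -0.13 over 17 genes.

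**Figure D1:**
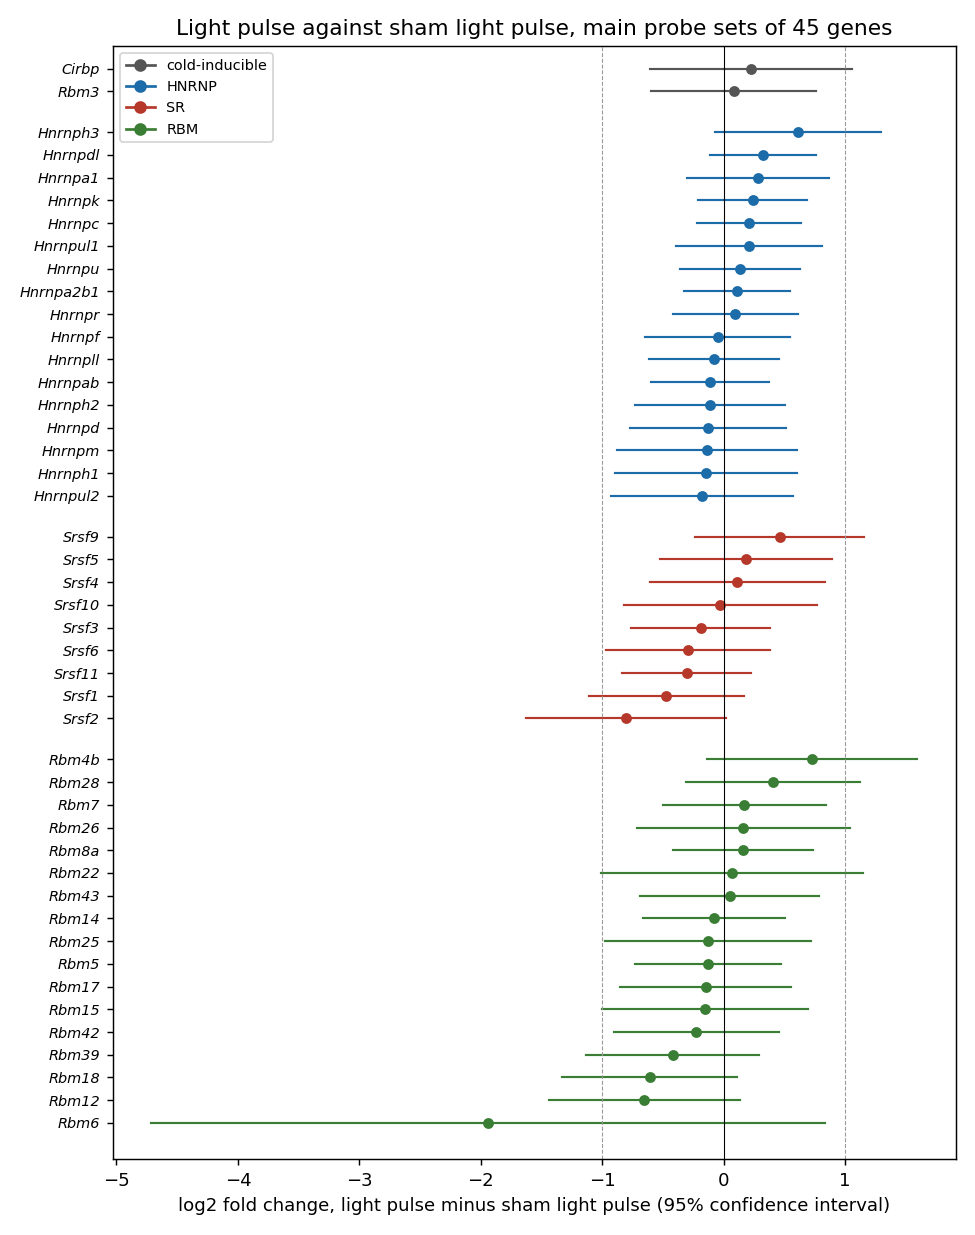
Log2 fold change between light pulse and sham light pulse arrays (horizontal axis, 0 at the solid line, a 2-fold difference either way at the dashed lines) for the main probe set of each of the 45 member genes kept for testing, grouped by class. Points are limma estimates from 3 against 3 arrays and bars their unadjusted 95% confidence intervals, all 45 of which hold 0.

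The width of the intervals sets what could have been seen. For 54 of the 93 kept members (58.1%) the 95% confidence interval lay within a 2-fold difference either way. The count was 31 of 42 for HNRNP probe sets, 13 of 22 for SR probe sets and 9 of 27 for RBM probe sets. The median SD of log2 signals within a group was 0.312 for HNRNP, 0.468 for SR and 0.428 for RBM probe sets, beside 0.428 for all kept probe sets. HNRNP transcripts therefore had the tightest limits among the 3 classes, and for most RBM probe sets a 2-fold difference was within the interval.

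The cold-inducible transcripts did not separate the groups. Cirbp signals were 171.3, 272.6 and 213.6 in the sham light pulse group, against 218.1, 325.4 and 223.7 in the light pulse group. The lowest value lay in the sham light pulse group and the highest in the light pulse group, but the groups overlapped. The log2 fold change of Cirbp was 0.22 (standard error 0.39, 95% confidence interval from -0.61 to 1.06, adjusted p = 0.970 from limma). It was 0.04 when light pulse replicate 2 was left out, 0.39 without sham light pulse replicate 2, 0.06 without sham light pulse replicate 1, and 0.14 after quantile normalization. The probe set of Rbm3 and Rbm3-ps read 1883, 3074 and 2716 after the sham light pulse, against 2184, 2037 and 4182 after the light pulse. Its highest value came from light pulse replicate 3, the array with the high Ttr signal, and the other 2 light pulse arrays lay within the range of the sham light pulse arrays. Its log2 fold change was 0.08 (standard error 0.31, interval from -0.60 to 0.76, adjusted p = 0.988 from limma), and -0.25 without light pulse replicate 3 and -0.13 without sham light pulse replicate 1. Across the 6 arrays the log2 signals of Cirbp and Rbm3 had a Pearson r of 0.0973 (exact permutation p = 0.851, adjusted 0.851) and a Spearman rho of 0.314 (exact permutation p = 0.564, adjusted 0.851). Without light pulse replicate 2 and sham light pulse replicate 1, the arrays farthest from the median of Cirbp, r was 0.212. This was the only relation across arrays that was computed, and it joins both groups.

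Cirbp is described as responding to mild cold through an 8-base element in its upstream region, TCCCCGCC. The table holds 2 promoters for Cirbp, and the first is shown because this element can be read in it. The other, at chr10:80167921-80168220 on the plus strand, does not hold these letters. The sequence, from RefSeq on GRCm38.p6, covers chr10:80167589-80167888 on the plus strand, 250 bases before to 50 after the gene start, with the element in capitals.
Cirbp: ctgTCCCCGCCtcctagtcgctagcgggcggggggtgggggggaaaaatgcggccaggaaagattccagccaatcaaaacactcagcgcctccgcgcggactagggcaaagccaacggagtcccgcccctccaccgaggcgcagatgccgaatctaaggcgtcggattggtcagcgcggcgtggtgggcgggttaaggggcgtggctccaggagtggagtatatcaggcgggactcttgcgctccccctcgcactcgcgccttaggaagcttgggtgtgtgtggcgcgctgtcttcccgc
The element begins at position -247 from the gene start. Searched on both strands, the same 8 letters were found in 3 of 62 promoters of member genes (4.84%) and in 5.38% of all 32851 promoters of the table. The table held promoters for 45 of the 50 member genes. Rbm3 was not among them.

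The HNRNP transcripts varied least between arrays of a group. The 3 genes of the class with the highest mean log2 signal were Hnrnpk, whose product binds poly(C) stretches, Hnrnpdl, a relative of the AU-rich element binder Hnrnpd, and Hnrnpab, which binds single-stranded nucleic acid. Hnrnpk read 21948, 18698 and 15974 after the sham light pulse, against 19986, 18791 and 28579 after the light pulse. Hnrnpdl had 16087, 18264 and 17496 against 17941, 19507 and 28710. In both genes light pulse replicate 3 was the highest array and the other light pulse arrays lay close to the sham light pulse arrays. The log2 fold changes were 0.24 for Hnrnpk and 0.32 for Hnrnpdl (standard errors 0.21 and 0.20), and 0.05 and 0.12 without light pulse replicate 3. With quantile normalization of all 6 arrays they were 0.06 and 0.10. These values are from the main probe sets. The 4 kept probe sets of Hnrnpk ran from -0.22 to 0.56, and the 6 of Hnrnpdl from -0.45 to 0.32. Levels of different probe sets are not ranked further, since each binds its target with its own strength.

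Hnrnpab showed how far probe sets of 1 gene can part. Its main probe set (1455855_x_at) had 16078, 15270 and 12657 after the sham light pulse, against 16332, 9647 and 15595 after the light pulse, a log2 fold change of -0.11 (standard error 0.23). It was 0.13 without light pulse replicate 2, -0.22 without light pulse replicate 3 and -0.24 after quantile normalization. Another (1426114_at) had 3120, 2413 and 2270 against 3543, 4694 and 4040, with every light pulse array above every sham light pulse array. Its log2 fold change of 0.66 (standard error 0.24) had the smallest unadjusted p of all members, 0.0178 from limma, with an adjusted p of 0.960. The other 3 kept probe sets of Hnrnpab lay between -0.11 and 0.03. Hnrnpul2, a gene of the hnRNP U family, also had probe sets on both sides of 0. Its main probe set (1434551_at) had 656.0, 1189.5 and 1140.4 after the sham light pulse, against 667.4, 1295.9 and 707.6 after the light pulse, at -0.18 (standard error 0.35), and -0.05 without light pulse replicate 3. The second (1415765_at) had 249.1, 279.9 and 169.3 against 398.2, 368.6 and 457.3, with no overlap, at 0.84 (standard error 0.35, unadjusted p = 0.0305 and adjusted p = 0.960 from limma). These 2 probe sets were the members that passed an unadjusted p of 0.05.

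Among the other HNRNP genes, Hnrnph3, a relative of the G-tract binders Hnrnph1 and Hnrnph2, had the largest log2 fold change of a main probe set in its class. Its signals were 792.1, 809.1 and 727.6 after the sham light pulse, against 765.9, 1608.6 and 1349.2 after the light pulse. Light pulse replicates 2 and 3 lay above all other arrays, while replicate 1 lay among the sham light pulse arrays, and the difference on the log2 scale was 0.61 (standard error 0.32, adjusted p = 0.960 from limma), and 0.39 without replicate 2. Hnrnpd was at -0.13 (standard error 0.30), with signals from 1584 to 2792 in the sham light pulse group and from 1658 to 2731 in the light pulse group, and was at 0.04 without light pulse replicate 3. Hnrnpa2b1, named here after its values were seen, encodes an abundant core hnRNP protein. Of its 4 kept probe sets, 1434047_x_at had 4940, 5984 and 5660 after the sham light pulse, against 4317, 4007 and 3923 after the light pulse, the only HNRNP probe set with all light pulse arrays below all sham light pulse arrays. Its log2 fold change was -0.43 (standard error 0.22), while the other 3 lay at 0.01, 0.02 and 0.11. Hnrnpl, the only HNRNP gene with no kept probe set, had signals from 7.3 to 46.3.

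**Figure D2:**
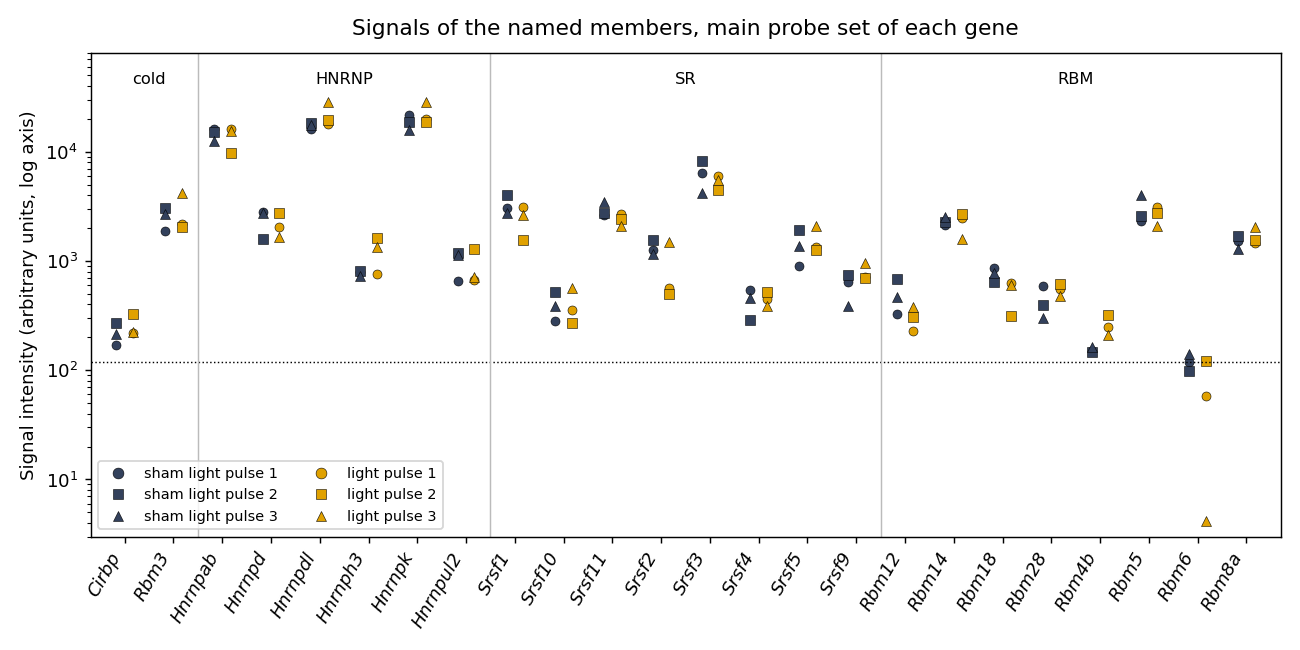
Signal intensity (arbitrary units, log axis) on each of the 6 arrays for the main probe set of 24 named member genes, with sham light pulse arrays dark and left and light pulse arrays yellow and right, and 1 symbol shape per replicate number. The dotted line is the signal, 118.2, that at least 3 arrays had to reach for a probe set to be kept. The groups overlapped in 22 of the genes, all except Rbm18 and Rbm4b.

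The SR probe sets had high values on 1 sham light pulse array. On sham light pulse replicate 2, 19 of the 22 kept SR probe sets (86.4%) lay above their own mean over the 6 arrays, with a median deviation of 0.48 on the log2 scale. Over all kept probe sets the share on that array was 50.2% and the median deviation 0.00. For 12 of the 22 SR probe sets (54.5%) this array gave the highest signal, as it did for 18.5% of all kept probe sets. With each of the 9 SR genes read by its main probe set, 8 lay above their own mean on that array, with a median deviation of 0.43, but it gave the highest signal for 3 genes (33.3%), as many as light pulse replicate 3. No SR probe set had its highest signal on light pulse replicate 1 or 2, against 15% and 18.3% of all kept probe sets. On sham light pulse replicate 2 the median deviation was 0.13 for HNRNP and 0.09 for RBM probe sets. Of the 42 HNRNP probe sets 29 (69%) lay above their own mean on that array. Their median deviation was -0.09 on sham light pulse replicate 3 and 0.13 on light pulse replicate 3. Read by their main probe sets, 3 of 17 HNRNP genes lay above their own mean on sham light pulse replicate 3, with a median deviation of -0.235. On light pulse replicate 3, 13 of 17 did, with a median deviation of 0.218. Over all kept probe sets the shares above their own mean on these arrays were 55% and 53%. Without sham light pulse replicate 2 the SR median log2 fold change moved from -0.19 to 0.02, and without light pulse replicate 2 it was -0.06. The 22 probe sets are not independent, since they read 9 genes and share each array. Markers of other cells also differed on sham light pulse replicate 2. The 5 oligodendrocyte markers measured summed to 27874 there, against 36562 to 52879 on the other arrays, and the astrocyte gene Gfap had 75.6, against at least 365.5, while the 7 astrocyte markers together summed to 30045, the highest of 6 sums that began at 21556. Their part in the SR values was not tested.

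**Figure D3:**
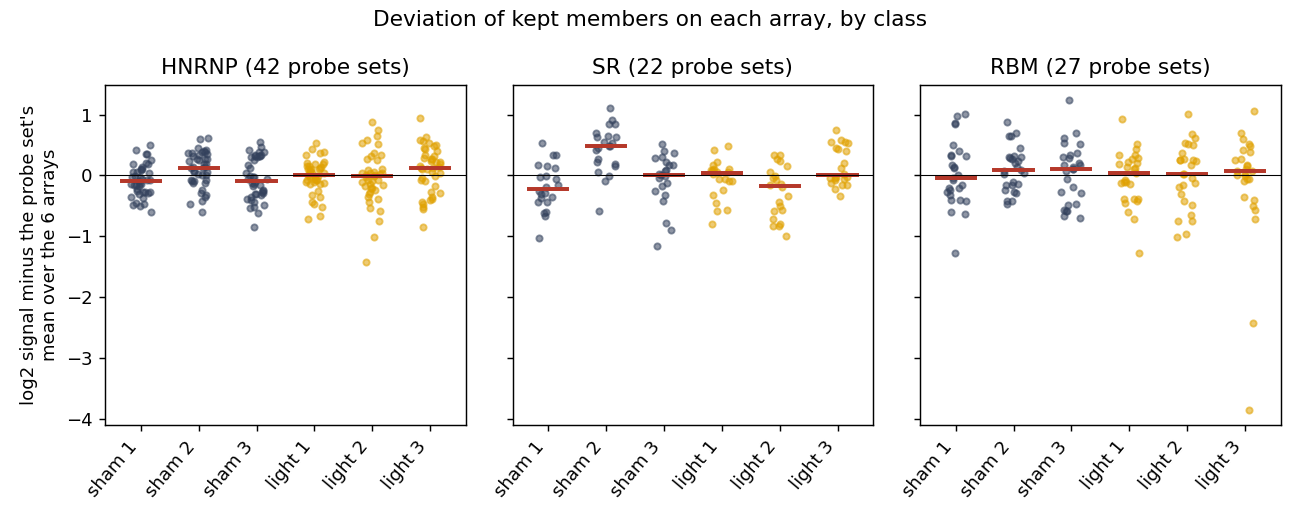
Deviation of each kept probe set's log2 signal from its own mean over the 6 arrays (vertical axis), on each array, for the HNRNP, SR and RBM classes. Points are probe sets and red bars medians over the class. The SR median on sham light pulse replicate 2 was 0.48, and all other medians lay between -0.23 and 0.13.

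Srsf3, the smallest of the classical SR proteins and a factor in splicing and RNA export, showed this array in all of its 5 kept probe sets. Its main probe set had 6335, 8150 and 4181 after the sham light pulse, against 5997, 4425 and 5480 after the light pulse. The light pulse values lay within the range of the sham light pulse values, and the log2 fold change was -0.19 (standard error 0.27), or 0.03 without sham light pulse replicate 2 and -0.45 without sham light pulse replicate 3. Another probe set (1416152_a_at) had 800.8, 1922.6 and 935.6 against 595.9, 658.2 and 872.7, at -0.69 (standard error 0.35). Srsf2, a splicing activator also known as SC35, had the smallest unadjusted p of its class. Its main probe set had 1262, 1560 and 1157 after the sham light pulse, against 570.2, 498.9 and 1493.6 after the light pulse. Light pulse replicates 1 and 2 lay below every sham light pulse array and replicate 3 among them, so the groups overlapped. The log2 fold change came to -0.81 (standard error 0.38, interval from -1.63 to 0.02, unadjusted p = 0.0541 and adjusted p = 0.960 from limma). Without light pulse replicate 3 it was -1.30 (adjusted p = 0.715), the smallest adjusted p of a member under the alternatives tried. The second kept probe set of Srsf2 was at -0.31 (standard error 0.42).

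Srsf1, the founding splicing factor of the family, had 4 kept probe sets that spread over more than a 2-fold range. The main one (1434972_x_at) had 3059, 4031 and 2754 after the sham light pulse, against 3113, 1552 and 2637 after the light pulse, at -0.47 (standard error 0.30), and -0.18 without light pulse replicate 2. The dimmest (1453722_s_at) had 204.6, 327.9 and 104.5 against 312.2, 296.0 and 256.7, at 0.59 (standard error 0.44). Srsf10, a splicing repressor when dephosphorylated, had log2 fold changes of -0.29, -0.03 and 0.72 over 3 probe sets, and its main one moved from -0.03 to -0.31 without light pulse replicate 3. Srsf11 was at -0.31 by its main probe set and -0.48 by its other one (standard errors 0.25 and 0.33). The second read 1529, 3713 and 2552 after the sham light pulse, against 1971, 1371 and 1966 after the light pulse, again highest on sham light pulse replicate 2. The SR genes above 0 by main probe set were Srsf9 at 0.46 (standard error 0.32), Srsf5 at 0.19 (standard error 0.33) and Srsf4 at 0.11 (standard error 0.33). Srsf9 was at 0.19 without sham light pulse replicate 3, Srsf5 at -0.10 without sham light pulse replicate 1 and -0.05 without light pulse replicate 3, and Srsf4 at -0.16 without sham light pulse replicate 2 and 0.21 without light pulse replicate 3. In each of these 3 the groups overlapped, and no SR gene had non-overlapping groups by its main probe set. Among the other SR probe sets 1 of Srsf6 (1448454_at), named after its values were seen, had 229.3, 277.5 and 257.2 against 290.6, 311.8 and 320.4, a narrow separation at 0.28 (standard error 0.33).

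The light response of the SCN runs in part through CREB, which binds the cAMP response element (CRE), TGACGTCA, or its half-site, TGACG, which lies within the full element. Searched on both strands, the full element was found in 0 of the 62 promoters of member genes and in 1.79% of all promoters. The half-site was found in 31 of the 62 (50%), against 20.8% of all promoters. Some genes have several promoters that overlap, and by gene the count was 26 of 45 (57.8%), against 23% of all genes with promoters. The member promoters were richer in G and C, with a median of 63.7% against 52.7%. The letters TATAA, read on the gene strand, were found in 6 of 62 (9.68%), against 17.5%. The promoter of Srsf3 is shown because it holds 3 half-sites and TATAA, while the groups overlapped in its transcript. It lies at chr17:29032410-29032709 on the plus strand (RefSeq, GRCm38.p6), with half-sites and TATAA in capitals.
Srsf3: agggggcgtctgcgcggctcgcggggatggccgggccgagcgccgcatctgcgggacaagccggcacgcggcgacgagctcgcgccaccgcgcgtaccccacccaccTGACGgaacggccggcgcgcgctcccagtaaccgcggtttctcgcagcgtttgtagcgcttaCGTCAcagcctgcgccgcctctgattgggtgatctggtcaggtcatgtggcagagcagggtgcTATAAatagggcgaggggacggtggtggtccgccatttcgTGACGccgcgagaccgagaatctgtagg
The half-sites begin at -143 and 22 on the plus strand and at -81 on the minus strand, where it reads CGTCA, and TATAA begins at -18. A match is a description of letters and no evidence of binding.

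RBM probe sets were the least often kept, with 27 of 51 against 42 of 50 for HNRNP and 22 of 28 for SR. By gene the counts were closer, with 17 of 21 RBM, 17 of 18 HNRNP and 9 of 9 SR genes kept. Of the 24 RBM probe sets not kept, 6 read Rbm39 and 4 read Rbm25, and both genes had another kept probe set. Rbm15b, Rbm19, Rbm38 and Rbm47 had no kept probe set, with signals between 3.2 and 114.2 on their main ones. The 3 RBM genes with the highest mean log2 signal were Rbm5, a splicing regulator of apoptosis genes, Rbm14, a coactivator found in paraspeckles, and Rbm8a, a core protein of the exon junction complex. Rbm5 had 2324, 2557 and 3986 after the sham light pulse, against 3127, 2777 and 2079 after the light pulse, at -0.13 (standard error 0.28), but 0.11 without sham light pulse replicate 3 and 0.04 without light pulse replicate 3. Rbm8a had 1539, 1679 and 1299 against 1466, 1542 and 2063, at 0.16 (standard error 0.27), and 0.0063 without light pulse replicate 3. The groups overlapped in both genes by these main probe sets. The other kept probe set was at -0.88 for Rbm5 and at 0.45 for Rbm8a. Rbm14 was read by 4 kept probe sets. Its main one had 2145, 2300 and 2529 against 2470, 2688 and 1590, with overlap, at -0.08 (standard error 0.27), but 0.15 without light pulse replicate 3. Of the others, 1456566_x_at had 1948, 1649 and 1697 against 2089, 2302 and 2048, with no overlap, at 0.28 (standard error 0.25). The dim probe set 1450569_a_at also had no overlap, with 98.5, 122.8 and 80.5 against 162.1, 142.6 and 127.8, at 0.53 (standard error 0.56).

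The groups did not overlap in the main probe set of 2 RBM genes. Of 17 kept RBM genes 1 lay higher and 1 lower after the light pulse. Over all genes read by their main probe sets the shares were 5.73% and 4.38%, and nothing is read from counts this small. Rbm4b, a splicing factor close to Rbm4, had 150.3, 147.3 and 164.0 after the sham light pulse, against 248.6, 317.7 and 208.7 after the light pulse, at 0.73 (standard error 0.40, interval from -0.14 to 1.59, adjusted p = 0.960 from limma). Its signals lay not far above the lowest kept. Rbm18 had 858.9, 641.2 and 769.9 against 627.4, 312.9 and 606.2, with light pulse replicate 2 far below the rest, at -0.61 (standard error 0.34, adjusted p = 0.960 from limma), and -0.29 without that array. Rbm12 had 325.5, 688.4 and 464.4 against 229.4, 304.9 and 383.0, an overlap by 1 array, at -0.65 (standard error 0.37), and -0.38 without sham light pulse replicate 2. Rbm28, a nucleolar protein, had 595.5, 392.4 and 298.7 against 554.0, 614.5 and 476.6, at 0.41 (standard error 0.33), with 0.17 when sham light pulse replicate 3 was left out and 0.67 when replicate 1 was. Rbm6, a gene beside Rbm5, had the most negative log2 fold change of the members, -1.94 (standard error 1.29). Its signals were 118.9, 98.5 and 142.3 against 57.5, 121.8 and 4.2, near the floor of the arrays, and without light pulse replicate 3 the value was -0.50.

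**Figure D4:**
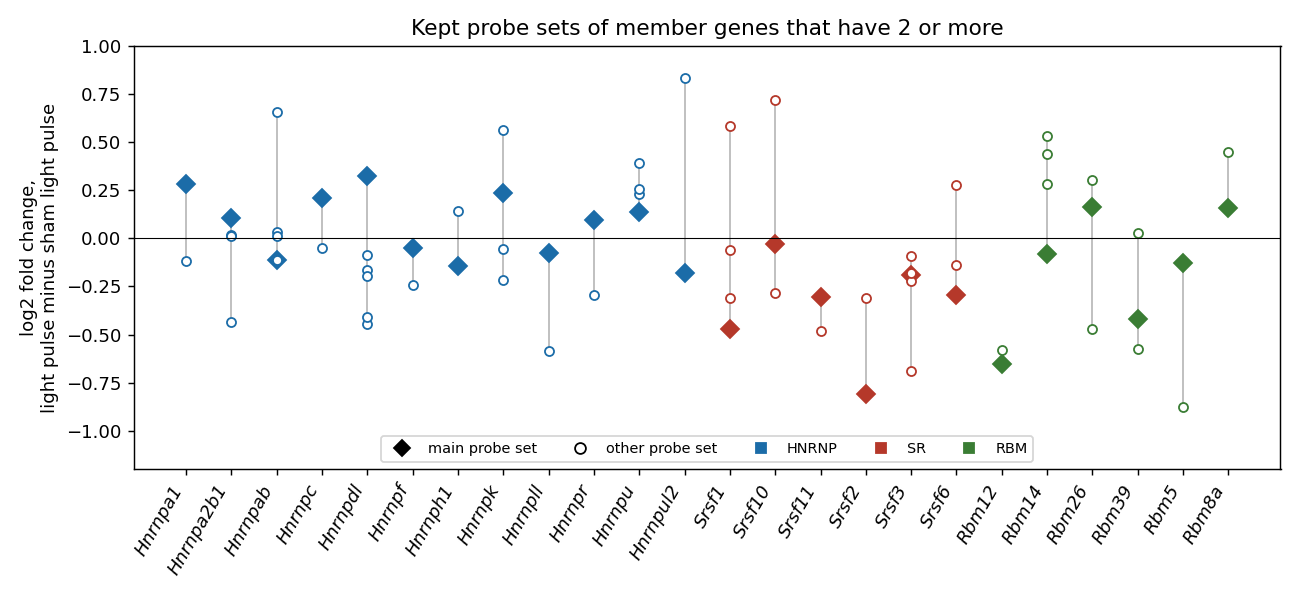
Log2 fold change between light pulse and sham light pulse arrays (vertical axis) of every kept probe set of the 24 member genes that have 2 or more, with the main probe set of each gene as a filled diamond and the others as open circles. Grey lines join probe sets of 1 gene, and in 15 of the 24 genes they cross 0.

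Probe sets of 1 gene often parted. In 24 member genes with 2 or more kept probe sets (72 probe sets in all), the median range of log2 fold changes within a gene was 0.56, and in 15 of them probe sets lay on both sides of 0. The mean signals of a gene's probe sets differed by a factor of 1.28 (Srsf11) to 93.0 (Hnrnpab), with a median of 5.31. The 3 genes with a range of more than 1 were Hnrnpul2, Srsf1 and Srsf10. Of the 131 members 28 have IDs that mark probes shared with other transcripts (_x_at or _s_at) and 30 IDs that mark several transcripts of 1 gene (_a_at).

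Genes that work with these proteins gave no calls either. Of 8 kept genes for SR protein kinases 4 lay above 0 and 4 below, with a median log2 fold change of -0.05. Prpf4b, a kinase of the spliceosome, was at 0.06 (standard error 0.23) and Clk1, which phosphorylates SR proteins, at -0.10 (standard error 0.26). Of 16 genes for SR-related splicing factors 6 lay above 0, with a median of -0.12. Luc7l3 was at -0.12 and the exon activator Tra2b at -0.27 (standard errors 0.23 and 0.28). Pnn, whose product associates with the exon junction complex, was the only gene of that list without overlap and is named for it. It lay lower, at -0.73 (standard error 0.29, unadjusted p = 0.0246 and adjusted p = 0.960 from limma). This is 1 gene of 16, beside 4.38% of all genes read by their main probe sets that lay lower without overlap. Of 20 genes for other hnRNP-associated proteins 8 lay above 0, with a median of -0.08, with Matr3 at 0.25 and Nono at -0.23 (standard errors 0.20 and 0.22). Of 16 kept genes for neuronal and other splicing regulators 6 lay above 0, with a median of -0.22, with Celf4 at 0.03 and Celf1 at 0.08 (standard errors 0.20 and 0.30). Nova1 was the only one of them without overlap, lower at -0.48 (standard error 0.58). Over all genes read by their main probe sets 4.38% lay lower without overlap. The signals of Nova1, 123.3, 149.7 and 127.8 against 118.3, 90.3 and 81.5, lay near the lowest kept. Ptbp3 was at -1.02 (unadjusted p = 0.0252, adjusted p = 0.960 from limma). Pcbp4, of the hnRNP-associated list, was at 0.93 (unadjusted p = 0.0245, adjusted p = 0.960 from limma). Of 32 core spliceosome genes 19 lay above 0, with a median of 0.07. There 4 genes (12.5%) lay higher and 2 (6.25%) lower without overlap, against 5.73% and 4.38% of all genes read by their main probe sets, and nothing is read from counts this small. Sf3b2 was at 0.01 and Ddx5 at 0.28 (standard errors 0.19 and 0.21). Prpf6 was at 0.54 (unadjusted p = 0.0262, adjusted p = 0.960 from limma). Sf3a3 was at -0.64 (unadjusted p = 0.0433, adjusted p = 0.960 from limma). At an unadjusted p under 0.05 from limma, 2.11% of all kept probe sets lay higher and 2.21% lower. Limma called 0 genes in each of these 5 lists.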

How the data were processed

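Groups and replicate numbers came from the sample labels. The authors made the deposited signal intensities with the MAS5 algorithm, on a linear scale, and scaled each array. From it the log2 was computed here with no offset. Light pulse and sham light pulse arrays were compared over 10340 probe sets, the number the study kept, chosen by the rank 3 signal of 6 arrays, with limma 3.58.1 in R 4.3.3 (lmFit and eBayes, trend = TRUE; tests were two-sided with Benjamini-Hochberg adjustment). Cyber-T was rewritten (window of 101 probe sets, prior weight 10). Both steps were tested on simulated data. The members and lists were chosen with earlier results of these data known. Named genes were Cirbp, Rbm3 and, in each class, the 3 genes with the highest mean log2 signal, the 3 with the smallest unadjusted p in each direction, genes whose probe sets lay more than 1 apart, and of each list the 2 genes with the highest signal. Others were named after their values were seen. Of 131 members 130 had 1 symbol, and the current gene table changed 0 of them. Promoters came from RefSeq (GRCm38.p6). Figures used matplotlib 3.10.9. Alternatives were other filters, scalings, an offset of 50, no trend, Cyber-T, a replicate block, fewer probe sets and leaving out each array. Signals give no counts.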

Additional observations from a re-analysis of the deposited data

How the results depend on the processing

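Limma or Cyber-T called 0 members under each of 16 alternatives, in which 4 to 8 of all probe sets tested were called, against 7. The smallest adjusted p of a member was 0.715. The stricter filter left out Cirbp and gave it no value. Of the 24 named genes, 15 kept the sign of their log2 fold change under every alternative that gave a value, and 9 changed sign when an array was left out. With each array left out in turn, Rbm3 ran from -0.25 to 0.27, Hnrnpab from -0.25 to 0.13, Hnrnpd from -0.40 to 0.0406, Srsf3 from -0.45 to 0.0311, Srsf4 from -0.16 to 0.30, Srsf5 from -0.10 to 0.45, Srsf10 from -0.31 to 0.21, Rbm5 from -0.28 to 0.11 and Rbm14 from -0.23 to 0.15. Members at an unadjusted p under 0.05 numbered 0 to 4 higher and 0 to 3 lower over these fits. The SR median ran from -0.26 to 0.02, the HNRNP median from -0.05 to 0.11 and the RBM median from -0.13 to -0.00. Another alternative dropped probe sets of shared targets and also probe sets with IDs ending in _a_at, which left 48 members. There the SR median was -0.06 and the RBM median -0.15. The cause was not tested. With the replicate number as a block (replicate block) 0 members and 6 of all probe sets were called. Deviations of same-numbered arrays correlated at 0.0958, -0.192 and -0.129, and 2 of 6 arrays correlated best with their own number, so the numbers were not taken as pairs.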
